A study of Mus musculus with 16 samples.

Results

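Genes that encode secreted Wnt antagonists, Dkk1, Sfrp1, Sfrp2, Sfrp5 and Frzb, were examined for the state of the chromatin around them in ATAC-seq libraries of mouse embryonic stem cells (ESCs) on the way to anterior neural progenitor cells. ATAC-seq marks DNA that is accessible to a transposase, and the deposited lists give peaks of such access with a fold enrichment over the local background at each summit. A region belonged to a gene when the nearest transcription start site (TSS) of any protein-coding gene was that of the gene and lay within 100 kb. This gave 34 of the 80565 regions found over all 16 libraries, with 11 at Sfrp1, 7 at Sfrp2, 6 at Dkk1, 6 at Frzb and 4 at Sfrp5. Regions are named here by gene and by the distance of their midpoint from the TSS, negative upstream. A region was open in a library when it overlapped one of the 50000 intervals with the highest −log10 p of that library, and closed otherwise. A closed region can still hold a weaker summit in the list, and its fold enrichment is then given. The median gene with a region had 3 of them.

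The study followed 8 groups of 2 libraries, all of male B6129S6F1 ESC lines kept on feeder cells before differentiation. Wild type (WT, lines WT70 and WT72), Tet1 catalytic mutant (MUT, CM59 and CM69) and Tet1 knockout (KO, KO1 and KO15, with the tm1Koh allele) lines were each collected on days 2 and 3. Cells of WT genotype that received the Wnt activator CHIR99021 (CHIR, 3 µM from day 2, lines WT7 and WT34) and KO cells that received the Wnt inhibitor XAV939 (XAV, 5 µM from day 2, again KO1 and KO15) were sampled on day 3. TET1 oxidises methylated cytosine in DNA, and the MUT lines, clones of WT7, carry an inactive form of it. Tet1 expression was not measured in these files, so the genotypes rest on the labels. The CHIR lines differ from the untreated WT lines, so line and treatment cannot be told apart in that comparison, and no group received the vehicle alone.

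Wnt proteins signal through a Frizzled receptor and an LRP5 or LRP6 co-receptor, and the signal ends in beta-catenin acting with TCF/LEF factors on DNA. DKK1 binds the LRP co-receptors and keeps them from Wnt, with the Kremen proteins as its own partners. SFRP1, SFRP2, SFRP5 and FRZB (also called SFRP3) resemble the Wnt-binding part of Frizzled and can hold Wnt proteins outside the cell. Antagonists of both kinds help to keep Wnt activity low where the head and forebrain form, and Dkk1 is also known as a gene that Wnt signaling switches on. CHIR blocks GSK3 and so activates the pathway within the cell, and XAV stabilises axin and so dampens it.

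The sequences below cover 300 bases around the summit of 7 of these regions, read on the plus strand of GRCm38.p6 (coordinates as in mm10). The first 5 are among the 6 regions over 1 kb from the TSS whose open or closed state differed most between the 4 KO and CHIR-treated libraries and the other 6 libraries of day 3, and ties were settled by the shorter distance from the TSS. The last 2 were added after their values were seen, because only CHIR-treated cells opened them and their windows hold several of the words searched. Capitals mark short words, on either strand, of the kind that known families of factors bind. The TCF/LEF words were CTTTGAT and the closely related CTTTGAA, and the SOX word was CTTTGTT. The word AGGTGTG stood for the T-box family and TGTTTAC for the forkhead family. For GATA factors the word searched was AGATAAG, for TEAD factors it was GGAATGT, and for OTX and GSC it was TAATCC. The OCT word searched was ATGCAAAT.
Dkk1 +87.7 kb, intergenic, chr19:30461853-30462152: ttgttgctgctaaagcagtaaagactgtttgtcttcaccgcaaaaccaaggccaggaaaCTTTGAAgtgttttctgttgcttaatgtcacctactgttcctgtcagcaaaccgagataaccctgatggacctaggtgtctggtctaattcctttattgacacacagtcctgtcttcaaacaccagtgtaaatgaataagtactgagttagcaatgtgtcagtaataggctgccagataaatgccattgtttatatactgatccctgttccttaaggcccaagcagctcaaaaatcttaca
Frzb +48.6 kb, intron of the antisense gene Gm13752, chr2:80398867-80399166: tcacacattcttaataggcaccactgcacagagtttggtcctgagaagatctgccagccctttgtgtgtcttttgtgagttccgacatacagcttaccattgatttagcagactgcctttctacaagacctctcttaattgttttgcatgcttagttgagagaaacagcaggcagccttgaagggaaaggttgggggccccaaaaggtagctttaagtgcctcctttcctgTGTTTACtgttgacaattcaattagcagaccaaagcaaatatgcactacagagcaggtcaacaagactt
Sfrp1 +58.9 kb, intergenic, chr8:23470262-23470561: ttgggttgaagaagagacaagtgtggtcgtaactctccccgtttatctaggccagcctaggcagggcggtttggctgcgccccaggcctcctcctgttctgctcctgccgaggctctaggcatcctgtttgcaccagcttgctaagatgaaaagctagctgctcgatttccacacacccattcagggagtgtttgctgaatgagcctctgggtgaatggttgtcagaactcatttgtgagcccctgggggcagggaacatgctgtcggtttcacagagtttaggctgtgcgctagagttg
Dkk1 −4.21 kb, intergenic, chr19:30553718-30554017: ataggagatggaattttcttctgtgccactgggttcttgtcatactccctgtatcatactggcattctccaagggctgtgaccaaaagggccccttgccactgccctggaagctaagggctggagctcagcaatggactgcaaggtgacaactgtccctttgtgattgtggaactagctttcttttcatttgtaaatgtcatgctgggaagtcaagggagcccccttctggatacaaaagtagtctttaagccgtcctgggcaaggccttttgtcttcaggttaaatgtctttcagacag
Sfrp1 −23.7 kb, intergenic, chr8:23387612-23387911: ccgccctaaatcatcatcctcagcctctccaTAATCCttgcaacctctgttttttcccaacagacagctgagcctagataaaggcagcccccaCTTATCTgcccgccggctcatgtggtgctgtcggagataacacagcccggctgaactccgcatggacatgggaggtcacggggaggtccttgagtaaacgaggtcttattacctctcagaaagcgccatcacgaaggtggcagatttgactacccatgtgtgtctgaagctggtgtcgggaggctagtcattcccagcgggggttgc
Dkk1 −0.769 kb, intergenic, chr19:30550284-30550583: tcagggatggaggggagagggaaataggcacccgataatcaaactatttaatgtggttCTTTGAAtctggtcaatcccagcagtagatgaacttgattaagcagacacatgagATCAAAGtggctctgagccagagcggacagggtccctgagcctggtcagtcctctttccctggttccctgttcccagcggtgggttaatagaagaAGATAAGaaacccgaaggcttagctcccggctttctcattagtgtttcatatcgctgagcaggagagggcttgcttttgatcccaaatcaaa
Sfrp5 −17.9 kb, intergenic, chr19:42220035-42220334: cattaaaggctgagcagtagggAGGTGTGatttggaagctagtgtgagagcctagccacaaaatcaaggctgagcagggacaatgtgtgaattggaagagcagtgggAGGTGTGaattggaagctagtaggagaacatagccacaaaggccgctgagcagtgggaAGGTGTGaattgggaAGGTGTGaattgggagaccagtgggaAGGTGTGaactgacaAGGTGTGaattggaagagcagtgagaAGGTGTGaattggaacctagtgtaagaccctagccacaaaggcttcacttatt

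Of these windows, that of Dkk1 +87.7 kb held 1 TCF/LEF word and that of Dkk1 −0.769 kb held 2 TCF/LEF words and 1 GATA word. The window of Sfrp1 −23.7 kb held 1 GATA and 1 OTX/GSC word, and that of Frzb +48.6 kb held 1 forkhead word. Sfrp5 −17.9 kb carried 7 T-box words in 232 bases, all on the plus strand, with 0 bases marked as a repeat in the genome file. The letters around these words recur too, as most of the 7 are followed by aattgg. They are therefore not independent matches, although the genome file marks no repeat there. As many T-box words or more were held by 17 of the 80565 regions. None of the words stood in the windows of Sfrp1 +58.9 kb and Dkk1 −4.21 kb. Over all 34 regions, a TCF/LEF word was present in 7 (20.6%), against 10.9% of all regions. A T-box word was present in 5 (14.7%, against 7.74%), a GATA word in 5 (14.7%, against 3.28%), an OTX/GSC word in 5 (14.7%, against 8.68%), a SOX word in 4 (11.8%, against 7.84%), a forkhead word in 2 (5.88%, against 3.85%), an OCT word in 2 (5.88%, against 2.77%) and a TEAD word in 0 (against 5.69%). These are matches of letters and no sites, and the median GC content of the windows was 53.3% both for the 34 regions and for all regions.

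Both KO libraries of day 3 were open at 3 regions that were closed in both WT libraries of that day. These lay at Dkk1 (+87.7 kb), Sfrp1 (+58.9 kb) and Frzb (+48.6 kb). Both were closed at 1 region that was open in both WT libraries, Dkk1 −4.21 kb. That region was closed in every library of day 2, and Sfrp1 +58.9 kb was already open in KO replicate 2 of day 2. A region is called gained here when both libraries of the first group were open and both of the second closed, and lost in the reverse case. The 3 gained regions compare with 3.92% of all regions gained in KO against WT, and the single lost region with 4.22% lost. With 2 libraries against 2, an exact permutation test cannot give a p under 0.33, so these counts carry none. In such bulk samples fewer cells with an open region and weaker access in each cell cannot be told apart. CHIR-treated WT cells gained 10 of the 34 regions against untreated WT, among them the same 3, where 11.0% of all regions were gained. They lost 3, Dkk1 −4.21 kb, Sfrp1 −11.9 kb and Sfrp5 −15.3 kb, where 9.02% of all regions were lost. A region had to be open in at least 2 libraries to be in the set. Among the 10 gained, Dkk1 −0.769 kb, Frzb +16 kb, Sfrp1 +40.5 kb and Sfrp5 −17.9 kb were open with CHIR alone. They entered the set only through these libraries, so their gain was fixed by that rule. Sfrp1 −23.7 kb, Sfrp1 +24.3 kb and Sfrp1 +32 kb were open elsewhere only in KO replicate 1 of day 3. They too met the rule only with the CHIR-treated libraries. The same rule shaped the share of all regions. XAV-treated KO cells, set against untreated KO cells, lost the same 3 regions that KO cells had gained, where 4.17% of all regions were lost. They gained Dkk1 −4.21 kb and Sfrp1 −67.1 kb, where 4.89% of all regions were gained. The KO libraries are shared by 2 of these comparisons and the WT libraries by 2, so the matching regions are not independent of each other.

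MUT cells on day 3 gained and lost 0 of the 34 regions against WT, where 1.89% of all regions were gained and 1.94% lost. On day 2, KO cells gained and lost 0 against WT (1.97% and 2.17% of all regions), and MUT cells gained and lost 0 as well (1.73% and 1.61% of all regions). From day 2 to day 3, WT cells gained Dkk1 −4.21 kb (3.46% of all regions) and lost Sfrp2 +21 kb (3.96% of all regions). KO cells gained 3 over the same day, Dkk1 −4.96 kb, Dkk1 +87.7 kb and Frzb +48.6 kb (5.17% of all regions), and lost 0 (6.41% of all regions).

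When the 4 KO and CHIR-treated libraries of day 3 were set against the 6 libraries of WT, MUT and XAV-treated KO cells, 3 of the 34 regions were open in all 4 and in none of the 6, while 0.788% of all regions were. They were again Dkk1 +87.7 kb, Sfrp1 +58.9 kb and Frzb +48.6 kb. Of these, Dkk1 +87.7 kb and Frzb +48.6 kb were open in no other library, so they entered the set only through these 4. No region was closed in all 4 and open in all 6, as for 0.663% of all regions. By Fisher's exact test of open against closed libraries (two-sided, Benjamini-Hochberg over 80565 regions), 0 regions passed, since the smallest p the design allows, 0.00476, became 0.328 after adjustment. At an unadjusted p under 0.05 there were 8 of the 34 regions and 4251, or 5.28%, of all regions. Among the 8, Sfrp1 −23.7 kb, Sfrp1 +24.3 kb and Sfrp1 +32 kb were also open in no library outside the 4. With Dkk1 +87.7 kb and Frzb +48.6 kb, they entered the set only through these 4 libraries, so that rule shaped the count of 8. It shaped the share of all regions too. The number of open regions among the 34 was 16 to 20 in the 6 libraries of day 2 and 17 to 20 in the 6 WT, MUT and XAV-treated libraries of day 3. The KO libraries of day 3 had 25 and 18, and those with CHIR 26 and 27, so the KO libraries stood on either side of the gap.

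**Figure D1:**
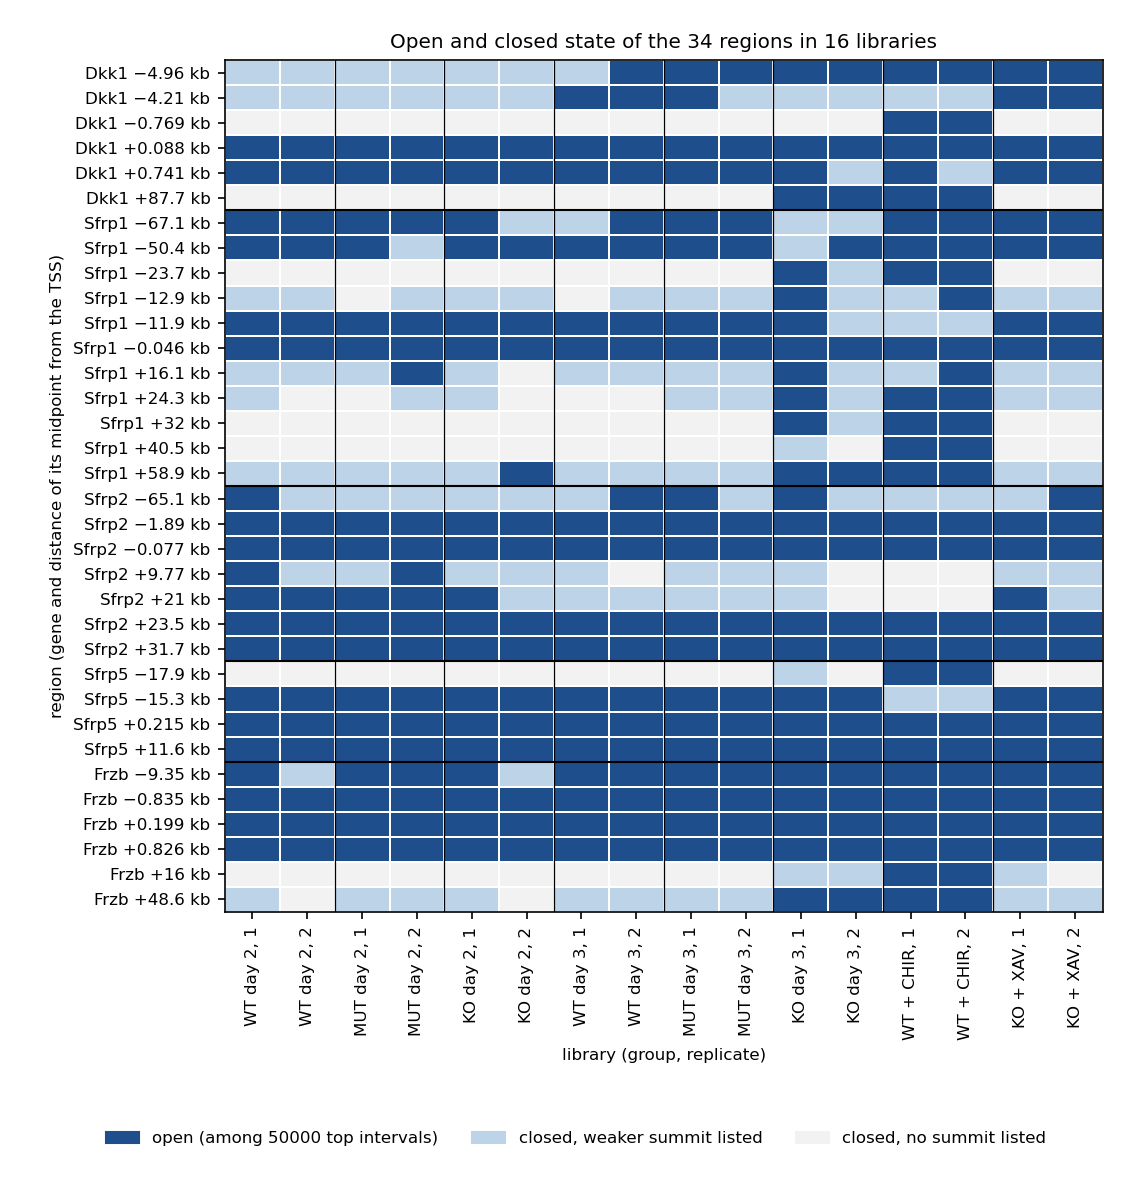
Open and closed state of the 34 regions (rows, by gene and distance from the TSS) in the 16 libraries (columns, by group and replicate). Dark cells are open, pale blue cells are closed with a weaker summit listed and grey cells are closed with no summit listed. The promoter rows are dark across nearly all libraries, and several distal rows are dark in CHIR-treated cells, in some of them with KO cells of day 3, and pale or grey elsewhere.

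**Figure D2:**
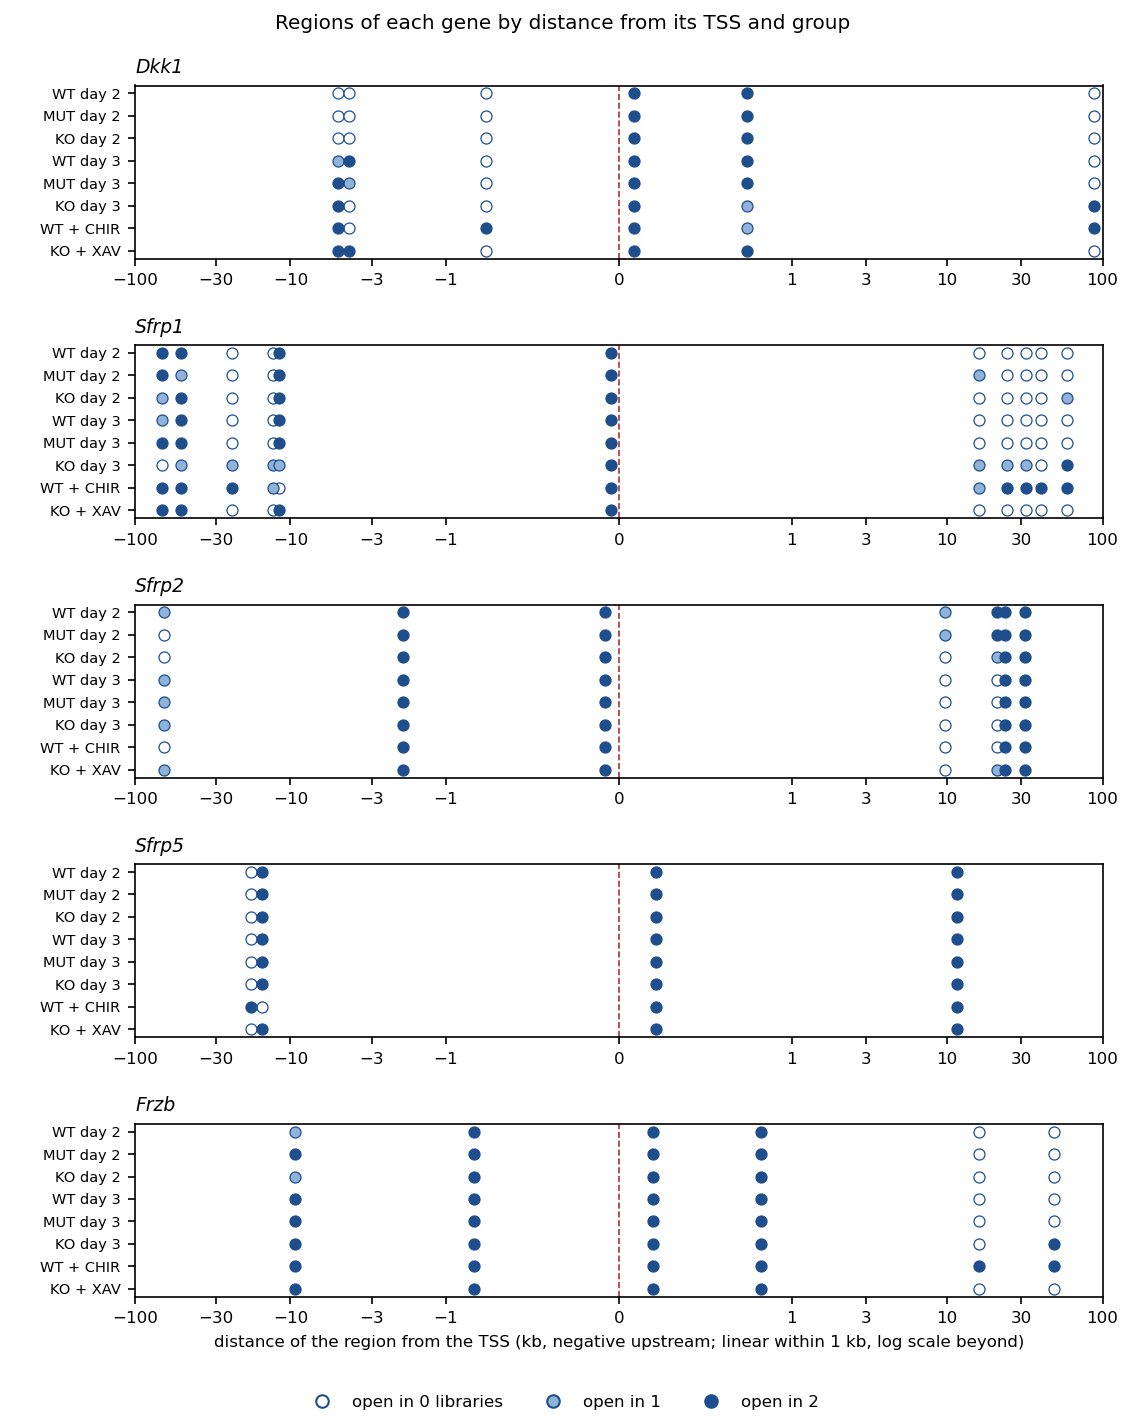
Number of open libraries (white 0, pale blue 1, dark blue 2) at each region of the 5 genes, by distance from the TSS in kb (linear within 1 kb, log scale beyond, dashed line at the TSS) and by group. The regions that changed state lie away from the TSS, apart from Dkk1 −0.769 kb and Dkk1 +0.741 kb.

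To compare the strength of access and not only its state, the fold enrichment was tested with limma over the 55384 regions with a summit listed in every library, 21 of which belonged to the 5 genes. Values were on a log2 scale and centred on the median of each library, which had differed by −0.32 (KO replicate 2 on day 3) to 0.17 (KO replicate 1 on day 2) from the mean of the libraries. The remaining 13 regions, Dkk1 +87.7 kb and Frzb +48.6 kb among them, lacked a summit in at least 1 library and were not fitted. Differences are therefore log2 differences in centred fold enrichment with their standard error (SE), and p-values were adjusted by the Benjamini-Hochberg method over all regions fitted. The p-values rest on the spread between the 2 libraries of each group, from 2 lines, pooled over the 8 groups. Libraries of the same line in different groups were treated as independent, and both MUT lines are clones of WT7.

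Of the 34 regions, 9 lay within 1 kb of the TSS of one of the genes, and 7 of them were open in all 16 libraries (77.8%, against 74.6% of all regions within 1 kb of a TSS). The region at the Dkk1 start (+0.088 kb, in its UTR) had a fold enrichment of 6.58 to 9.95 with a median of 8.10 over the 16 libraries. That at the Sfrp1 start (−0.046 kb) ranged from 6.27 to 10.2 with a median of 8.24, that at the Sfrp5 start (+0.215 kb) from 6.14 to 8.58 with a median of 7.31 and that at the Sfrp2 start (−0.077 kb) from 4.26 to 6.64 with a median of 5.67. Frzb had 3 such regions, −0.835 kb (6.81 to 8.78, median 7.80), +0.199 kb (5.11 to 8.36, median 7.43) and +0.826 kb (3.17 to 6.02, median 4.77), of which the last lies in its coding exon. In 3 libraries, both with CHIR among them, Frzb +0.826 kb lay in the same interval as Frzb +0.199 kb and took its state from that interval. In CHIR replicate 1 its own summit had a −log10 p of 9.59, below the 10.9 at rank 50000. None of the 8 promoter regions that could be fitted passed in any comparison with limma. Their log2 differences between KO and WT on day 3 lay between −0.23 and 0.09, with 95% confidence intervals that reached from −0.62 at the lowest to 0.50 at the highest. In CHIR-treated against untreated WT cells the differences lay between −0.54 and 0.15, with intervals from −0.98 to 0.56.

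**Figure D3:**
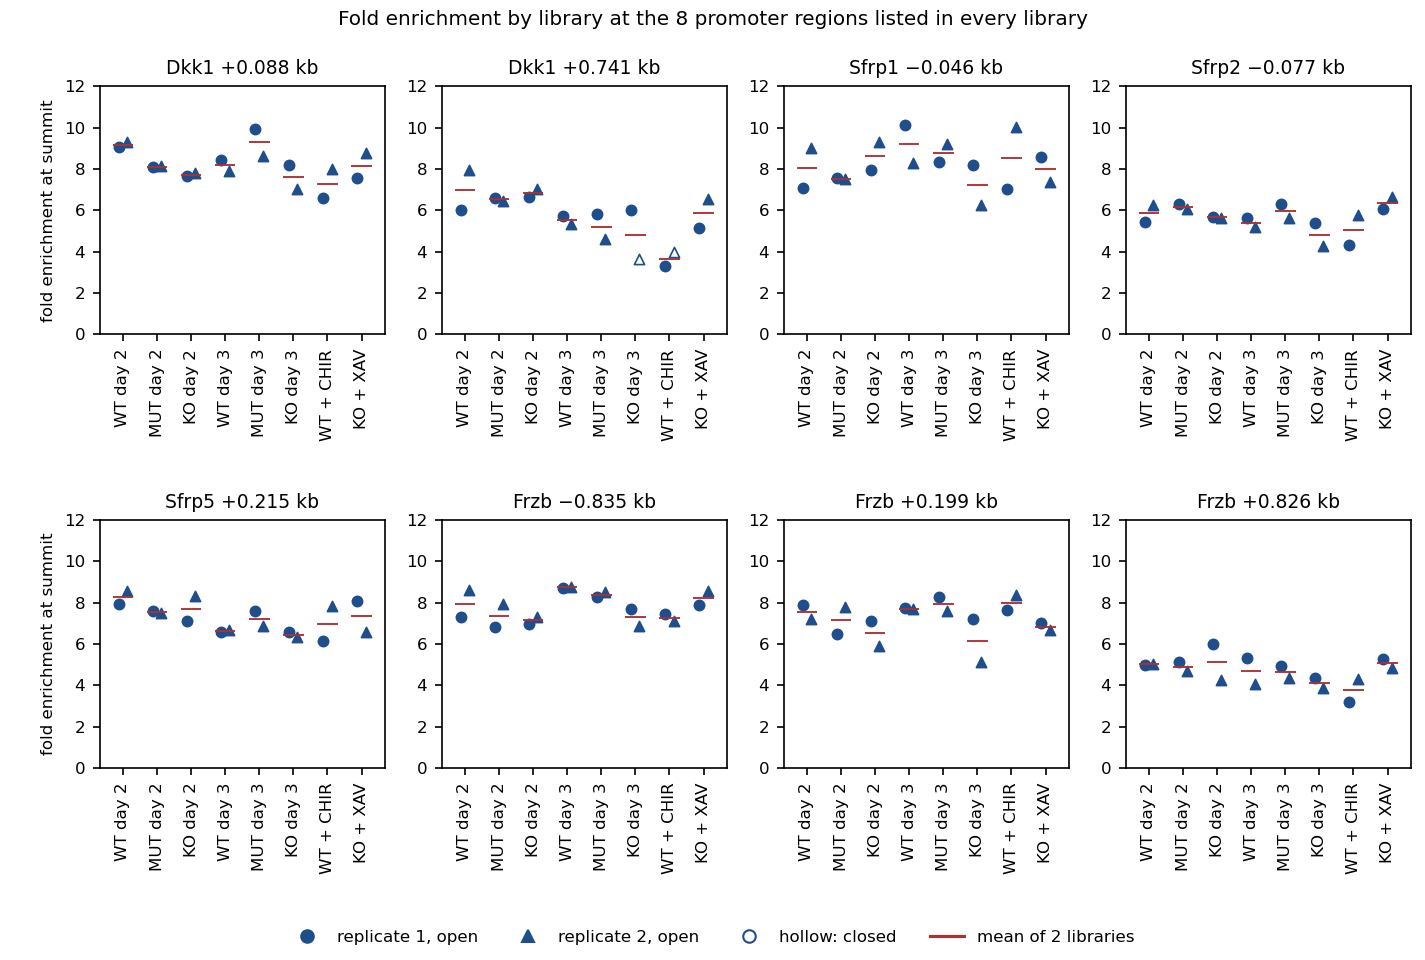
Fold enrichment at the summit in each of the 16 libraries for the 8 promoter regions with a summit in every library (circles replicate 1, triangles replicate 2, filled open, hollow closed, red line the mean of 2 libraries). Nearly all points are open, and the lowest are those of Dkk1 +0.741 kb and Frzb +0.826 kb in CHIR replicate 1, at 3.29 and 3.17.

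At Dkk1 (ENSMUSG00000024868.8, chr19:30545863-30549665 on the minus strand of mm10), the 2 promoter regions that varied were Dkk1 +0.741 kb and Dkk1 −0.769 kb. Dkk1 +0.741 kb, in a coding exon, was closed in KO replicate 2 on day 3 (fold enrichment 3.65) and in CHIR replicate 2 (3.97), and was open in the other libraries with 3.29 to 7.97. In 11 libraries it lay in the same interval as Dkk1 +0.088 kb and took its state from that interval, so CHIR replicate 1 was open with a lower value (3.29) than the closed CHIR replicate 2. Its difference between CHIR-treated and untreated WT cells was −0.54 (SE 0.21, limma adjusted p = 0.109) and did not pass. Dkk1 −0.769 kb was listed in no library other than those with CHIR, with fold enrichments of 3.69 and 4.24, below the median of the intervals kept in every library, which was 5.88 to 8.57. The ranks of these summits by −log10 p were 44851 and 39737 of the 50000 intervals kept.

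Upstream of Dkk1 lay a pair of neighbouring regions with midpoints at −4.96 and −4.21 kb. On day 3 they differed from WT in opposite directions in KO and CHIR-treated cells, though not every difference passed. The fold enrichment of Dkk1 −4.96 kb was 8.44 and 7.29 in KO cells on day 3, 6.87 and 7.00 with CHIR, 5.53 and 6.53 with XAV and 6.13 and 5.20 in MUT cells. It was 4.14 and 5.01 in WT cells on day 3 and 4.02 to 5.62 in the 6 libraries of day 2. The KO and CHIR-treated libraries were thus the highest of the 16. On day 3 Dkk1 −4.96 kb exceeded its WT level in KO cells by 0.92 (SE 0.20, limma adjusted p = 0.021) and in CHIR-treated cells by 0.69 (SE 0.20, limma adjusted p = 0.0267). It rose in KO cells from day 2 to day 3 by 0.88 (SE 0.20, limma adjusted p = 0.0145). The call against WT was lost without WT replicate 1 or KO replicate 2 of day 3 (limma adjusted p = 0.249 and 0.14), that with CHIR without WT replicate 1 or either CHIR library (0.304, 0.135 and 0.0862), and that between days without either KO library of day 2 or KO replicate 2 of day 3 (0.0587, 0.0933 and 0.111). With XAV it was lower than in untreated KO cells by a difference that did not pass (−0.60, SE 0.20, limma adjusted p = 0.141). As a call of open or closed, it was open in both libraries of MUT, KO, CHIR and XAV cells on day 3, in 1 of 2 in WT and in 0 of 6 on day 2. Its state depended on the limit, as WT replicate 1 on day 2 had it at rank 50057. With 30000 intervals per library it was open in the KO and CHIR-treated libraries of day 3 alone, and with every interval of −log10 q of 2 or more it was open in all 16.

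The neighbour Dkk1 −4.21 kb had fold enrichments of 4.84 and 5.45 in WT, 4.97 and 3.57 in MUT and 6.65 and 4.85 in XAV-treated KO cells on day 3, against 2.70 and 3.17 in KO and 2.43 and 3.09 in CHIR-treated cells. It was 2.39 to 4.37 on day 2. All 4 KO and CHIR-treated libraries of day 3 lay below the other 6 of that day on this scale. After centring, KO replicate 2 (3.97) lay above MUT replicate 2 (3.66), so the groups then overlapped. The difference was −0.82 between CHIR-treated and untreated WT cells (SE 0.24, limma adjusted p = 0.0264), a call lost without WT replicate 2 (0.216) or either CHIR library (0.183 and 0.0551). It was −0.68 between KO and WT cells on day 3, which did not pass (SE 0.24, limma adjusted p = 0.181). XAV-treated and untreated KO cells differed by 0.74, which did not pass either (SE 0.24, limma adjusted p = 0.129). So WT cells gained this region from day 2 to day 3 and KO cells did not, while the difference between those changes was −0.39 (SE 0.34, limma adjusted p = 0.983). Its state by libraries rests on the 50000 limit, since with 30000 intervals it was open in 1 of the 6 and 0 of the 4 libraries, and with every interval of −log10 q of 2 or more it was open in equal shares of both.

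The most distant Dkk1 region, +87.7 kb downstream of the TSS and past the gene's end, was present or absent without intermediate values. Its fold enrichment was 8.74 and 8.63 in KO cells on day 3 and 13.2 and 14.1 with CHIR, and no summit was listed in it in any of the other 12 libraries. Its summit ranked 3777 and 5662 of 50000 with CHIR and 23854 and 16777 in KO cells. It kept this state in all 16 libraries with 30000 intervals per library and with every interval of −log10 q of 2 or more. No expression or contact was measured here, so the gene it acts on, if any, is not given by this assignment.

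**Figure D4:**
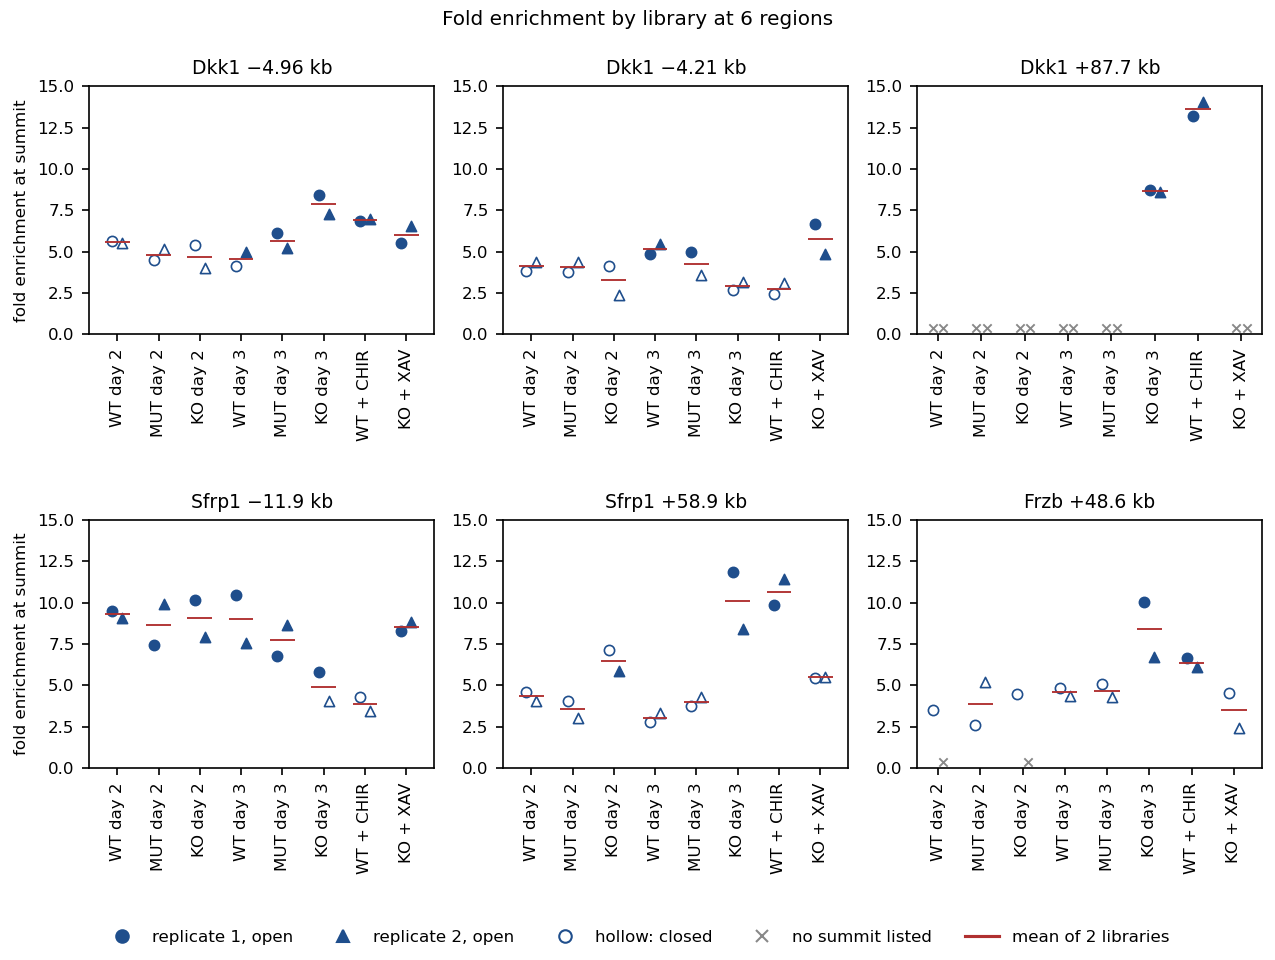
Fold enrichment at the summit in each library by group (circles replicate 1, triangles replicate 2, filled open, hollow closed) at 6 regions, with the mean of 2 libraries as a red line. Crosses near the base mark libraries with no summit listed and carry no value. KO and CHIR-treated cells on day 3 are high at Dkk1 −4.96 kb, Dkk1 +87.7 kb, Sfrp1 +58.9 kb and Frzb +48.6 kb, and low at Dkk1 −4.21 kb and Sfrp1 −11.9 kb.

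Sfrp1 (ENSMUSG00000031548.7, chr8:23411502-23449632, plus strand) had the most regions and the most that changed. Of its 11 regions, 3 or 4 were open in every library outside 3, as 8 were open in KO replicate 1 on day 3 and 8 and 10 with CHIR. KO replicate 2 on day 3 had 3. Sfrp1 +58.9 kb, past the end of the gene, had fold enrichments of 11.9 and 8.39 in KO cells and 9.84 and 11.4 with CHIR. It had 2.77 and 3.33 in WT, 3.74 and 4.27 in MUT and 5.47 and 5.50 in XAV-treated KO cells on day 3. On day 2 it had 7.12 and 5.88 in KO cells and 3.05 to 4.61 in WT and MUT cells. The 4 KO and CHIR-treated libraries of day 3 were the 4 highest, and the KO libraries of day 2 and those with XAV came next. On day 3 it exceeded its WT level in KO cells by 1.85 (SE 0.21, limma adjusted p = 0.000141) and in CHIR-treated cells by 1.89 (SE 0.21, limma adjusted p = 3.94e-06), and both passed under each of the 7 alternatives run. In XAV-treated KO cells it was lower than in untreated KO cells (−1.08, SE 0.21, limma adjusted p = 0.00863), a call lost without either XAV library (0.0825 and 0.0802). From day 2 to day 3 it rose in KO cells by 0.75 (SE 0.21, limma adjusted p = 0.0436), a call lost without any 1 of the 4 KO libraries (0.109 to 0.167). On day 2 KO and WT cells differed by 0.67, which did not pass (SE 0.21, limma adjusted p = 0.725).

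The opposite pattern was found 11.9 kb upstream of Sfrp1. The fold enrichment of Sfrp1 −11.9 kb was 5.81 and 4.04 in KO and 4.28 and 3.42 in CHIR-treated cells on day 3. It was 10.4 and 7.57 in WT, 6.80 and 8.64 in MUT, 8.29 and 8.83 in XAV-treated KO cells and 7.41 to 10.2 on day 2. The 4 KO and CHIR-treated libraries were the 4 lowest of the 16. CHIR-treated cells were below untreated WT cells by a difference of −1.13 (SE 0.20, limma adjusted p = 0.000441), which passed under each of the 7 alternatives run. KO cells fell from day 2 to day 3 (−0.76, SE 0.20, limma adjusted p = 0.0292), a call lost without any 1 of the 4 KO libraries (0.0514 to 0.161), and their difference from WT cells on day 3 did not pass (−0.75, SE 0.20, limma adjusted p = 0.0553). That difference passed in 1 of 7 alternatives, in which unlisted values were set to the lowest of each library (−0.74, limma adjusted p = 0.0345), and in the others the adjusted p reached 0.338. With XAV the difference from untreated KO cells was 0.60, which did not pass (SE 0.20, limma adjusted p = 0.129).

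Within and around the Sfrp1 gene, CHIR-treated cells opened a row of regions. Sfrp1 +40.5 kb had fold enrichments of 11.5 and 11.7 with CHIR and 3.54 in KO replicate 1 on day 3, where it was closed, and no summit in the other 13 libraries. Sfrp1 −23.7 kb had 8.55 and 7.57 with CHIR, and 7.12 (open) and 2.88 (closed) in KO cells on day 3, with no summit in the other 12 libraries. Sfrp1 +32 kb, in an intron of Sfrp1, had 7.87 and 6.36 with CHIR, and 7.61 (open) and 3.96 (closed) in KO cells, also with no summit elsewhere. These 3 regions were thus listed in CHIR-treated cells and KO cells of day 3 alone. Sfrp1 +24.3 kb, in an intron as well, had 7.59 and 10.2 with CHIR and 9.75 (open) and 3.91 (closed) in KO cells, against at most 4.42 in any other library. Sfrp1 −12.9 kb and Sfrp1 +16.1 kb were not part of this row, as CHIR replicate 1 was closed at both. Both were open in KO replicate 1 and CHIR replicate 2 of day 3, and Sfrp1 +16.1 kb also in MUT replicate 2 on day 2. Sfrp1 −12.9 kb had 5.43 and 6.97 with CHIR, and 3.84 in the only untreated WT library of day 3 that listed it. Sfrp1 +16.1 kb had 3.27 and 6.07 with CHIR, against 5.47 and 3.89 in untreated WT cells of day 3.

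Of the regions in the last paragraph, 5 were open in 1 KO library of day 3. In each of the 5, KO replicate 1 was open and KO replicate 2 was closed. KO replicate 2 on day 3 had the shortest list of all libraries, 135359 unique intervals against up to 219047, and the lowest −log10 p at rank 50000, 6.84 against up to 21.8. Its share of all 80565 regions that were open was 61.4% and that of KO replicate 1 63.2%, while the range over all libraries was 61.4% to 65.1%. The part of the list length in this difference was not tested. Without KO replicate 2, KO cells gained 8 of the 34 regions on day 3 against WT, where 7.57% of all regions were gained. Without KO replicate 1 they gained 3, where 6.73% of all regions were gained. Of the 8, all but Sfrp1 +16.1 kb and Sfrp1 +58.9 kb were open only in KO cells of day 3 and CHIR-treated cells. Those regions entered the set only through these libraries, which shaped the count.

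The remaining upstream regions of Sfrp1 were open in most groups. Sfrp1 −50.4 kb had 6.12 and 4.68 in KO cells on day 3, against 10.0 and 11.7 with XAV, 9.42 and 9.35 with CHIR and 8.31 and 5.67 in WT cells. The XAV-treated libraries were above both untreated KO libraries, by 0.80 (SE 0.20, limma adjusted p = 0.039), a call lost without any 1 of these 4 libraries (0.0882 to 0.291). Sfrp1 −67.1 kb was closed in both KO libraries of day 3 (6.44 and 3.96) and open in both with XAV (7.29 and 8.56), and limma gave a difference of 0.43 that did not pass (SE 0.24, limma adjusted p = 0.429). The calls for Sfrp1 +58.9 kb and Sfrp1 −50.4 kb under XAV held with cell line as a block (limma adjusted p = 0.000103 and 0.00836).

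Sfrp2 (ENSMUSG00000027996.13, chr3:83766321-83774316, plus strand), which encodes a close relative of SFRP1, differed from Sfrp1 in that 4 of its 7 regions were open in all 16 libraries. They lie at −1.89 and −0.077 kb, at +23.5 kb, in an exon of the antisense gene Gm26771, and at +31.7 kb. The fold enrichment of Sfrp2 +31.7 kb was 8.19 to 13.1 over the 16 libraries, and that of Sfrp2 +23.5 kb was 6.16 to 9.69. None of the 5 Sfrp2 regions that were fitted passed in any comparison with limma. Sfrp2 +21 kb, in an intron of Gm26771, was open in 5 of the 6 libraries of day 2 with 4.32 to 4.79, and on day 3 in 1 of 10, XAV replicate 1 (5.88). It held no summit in both CHIR-treated libraries and in KO replicate 2 on day 3, while the WT, MUT and remaining KO libraries of day 3 had 2.33 to 3.53. WT and MUT replicate 2 and KO replicate 1 of day 2 had it at ranks 49146 to 49530 of 50000, so its state was near the limit. Sfrp2 −65.1 kb and Sfrp2 +9.77 kb were open in 5 and 2 libraries, in no group by both.

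Sfrp5 (ENSMUSG00000018822.7, chr19:42197971-42202252, minus strand), also of this family, had 3 of 4 regions open in each library. Sfrp5 +0.215 kb and Sfrp5 +11.6 kb, the latter in a UTR exon of the neighbouring gene Zfyve27, were open in all 16. The change was at its upstream pair, where Sfrp5 −15.3 kb was open in 14 libraries and closed with CHIR. Sfrp5 −17.9 kb was open with CHIR and in none of the other 14. These states depended on the limit. With 30000 intervals per library, Sfrp5 −15.3 kb was closed in both untreated WT libraries of day 3 too. Sfrp5 −17.9 kb was then open in no library. With every interval of −log10 q of 2 or more, Sfrp5 −15.3 kb was open in all 16, and Sfrp5 −17.9 kb also in KO replicate 1 of day 3. The fold enrichment of Sfrp5 −15.3 kb was 4.70 and 5.09 with CHIR and 6.18 to 11.4 in the other libraries, so the CHIR-treated libraries were the lowest. With limma the difference from untreated WT cells was −0.44 and did not pass (SE 0.19, limma adjusted p = 0.153). Sfrp5 −17.9 kb, the region with 7 T-box words, had 5.87 and 6.97 with CHIR and 4.02 in KO replicate 1 on day 3, where it was closed. T-box factors such as Brachyury and Eomes act in the primitive streak, and no binding of any factor was measured in these files.

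Frzb (ENSMUSG00000027004.3, chr2:80411970-80447625, minus strand) had 3 promoter regions open throughout and Frzb −9.35 kb open in 14 libraries, with 4.95 to 14.3 over all 16. Of the promoter regions, Frzb +0.826 kb took its state in 3 libraries from the interval it shared with Frzb +0.199 kb. Frzb +48.6 kb lies past the 3′ end of Frzb. It had fold enrichments of 10.1 and 6.71 in KO cells on day 3 and 6.63 and 6.12 with CHIR, against 4.85 and 4.33 in WT, 5.10 and 4.27 in MUT and 4.55 and 2.45 in XAV-treated KO cells. On day 2 it was 2.62 to 5.18 in the 4 libraries where it was listed. The 4 KO and CHIR-treated libraries were the 4 highest. With 30000 intervals per library it was open in both KO libraries and closed in both CHIR-treated libraries. With every interval of −log10 q of 2 or more, Frzb +48.6 kb was open in 5 of the 6 other libraries of day 3 too, as was Sfrp1 +58.9 kb. Frzb +16 kb, in an intron of Frzb, was open with CHIR alone, with 6.43 and 8.22, while KO cells on day 3 had 4.83 and 2.52 and XAV replicate 1 had 3.65, all closed.

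**Figure D5:**
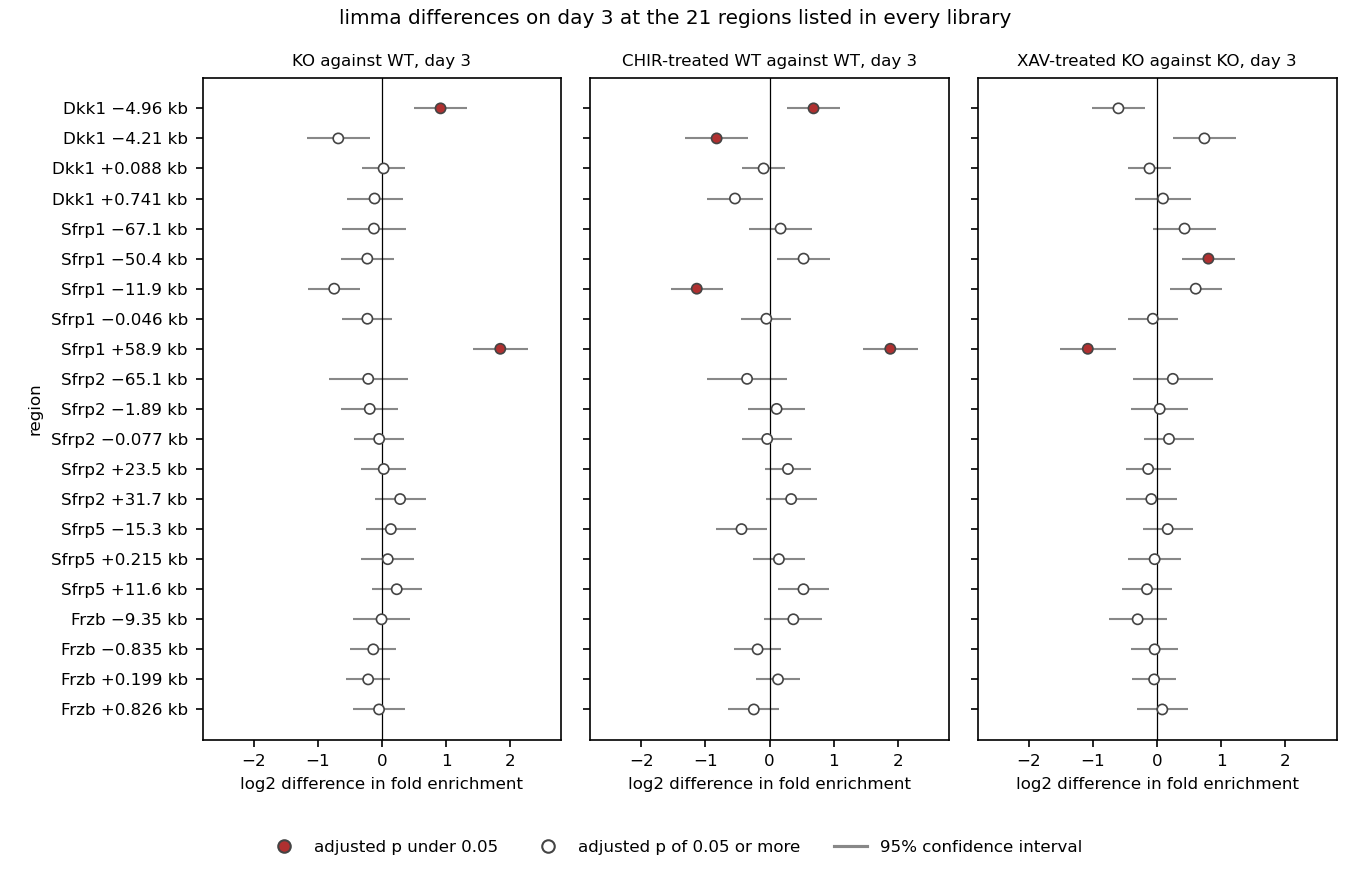
Log2 differences in centred fold enrichment with 95% confidence intervals (limma) for the 21 regions listed in every library, in KO against WT, CHIR-treated against untreated WT and XAV-treated against untreated KO cells on day 3. Red points have an adjusted p under 0.05 over the 55384 regions fitted. Sfrp1 +58.9 kb is the only region that is red in all 3 panels, and it changes side in the last.

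Read by limma as a whole, 2 of the 21 regions passed in KO against WT on day 3, where 1.59% of all regions fitted passed. In CHIR-treated against untreated WT cells 4 passed (11.3% of all), in XAV-treated against untreated KO cells 2 (1.78%), and in KO cells on day 3 against day 2, 3 (3.99%). In MUT against WT on day 3, 0 of the 21 passed (0% of all, and 3140 of the 55384 had an unadjusted p under 0.05, of which 0 were of these genes). In KO against WT on day 2, 0 passed (0.00181% of all, 2 of the 21 unadjusted) and in WT on day 3 against day 2, 0 passed (0.637% of all, 2 of the 21 unadjusted). The median difference over the 21 regions was −0.05 in KO against WT on day 3, beside 0.03 over all regions, and 0.11 with CHIR, beside 0.05. With cell line as a block, 1793 of all regions passed under XAV in place of 987, 2 of the 21 among them, and 0 passed in WT on day 3 against day 2 in place of 353.

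The other genes of the pathway were listed by their role. Over all regions, KO cells on day 3 gained 3.92% and lost 4.22% against WT. CHIR-treated cells gained 11.0% and lost 9.02% of all regions against untreated WT. Of 51 regions at 11 genes listed as other secreted Wnt antagonists, KO cells on day 3 gained 1 (1.96%) and lost 2 (3.92%). The lost regions were at Sost and Sostdc1, and CHIR-treated cells gained 8 (15.7%) and lost 5 (9.80%) of the 51. The single gained region in KO cells was at Cer1, and CHIR-treated cells gained it too. Of 20 regions at Lrp5, Lrp6, Kremen1 and Kremen2, through which DKK1 acts, KO cells lost 1, at Lrp5, and gained 0, and CHIR-treated cells gained 3 (15.0%) and lost 2 (10.0%). Of 70 regions at the 10 Frizzled genes, KO cells gained 2, at Fzd7 and Fzd9, and lost 2, at Fzd7 and Fzd8 (2.86% each), and CHIR-treated cells gained 14 (20.0%), 6 of them at Fzd10, and lost 9 (12.9%). All 10 Frizzled genes had an open promoter in every library.

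The genes whose number of open regions followed each antagonist most closely over the 16 libraries, among 7034 genes with at least 4 regions, were Cldn11, Ppp4r2 and Wwp2 for Sfrp1 (Pearson r of 0.973, 0.973 and 0.966). For Frzb they were Hkdc1, Tln2 and Tspan3 (0.95, 0.929 and 0.921), for Dkk1 Ndel1, Hdac4 and Parp11 (0.931, 0.905 and 0.896) and for Sfrp2 Srgap1, Dmrt2 and Cachd1 (0.796, 0.790 and 0.788). Sfrp5 had 3 open regions in every library, so it has no such value. Among the antagonists themselves, r was 0.772 for Sfrp1 and Frzb, 0.646 for Dkk1 and Frzb, 0.532 for Dkk1 and Sfrp1, and between −0.361 and −0.228 for Sfrp2 with the other 3. These are descriptions over libraries that share lines and list lengths.

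The cells were checked by open promoters of marker genes. The 6 epiblast markers had 5 or 6 open promoters in each library, the 6 neuroectoderm markers 3 to 5, the 6 primitive streak markers 4 to 6, and the 6 housekeeping genes 6. Of 8 fibroblast markers, which feeder cells would carry, 3 or 4 had an open promoter in every library, while those of Col1a1, Col3a1, Postn and Lum were open in none. Of 6 extraembryonic endoderm markers 4 had an open promoter in every library, while Afp and Ttr had none. Of the 62 regions at primitive streak markers, 14 (22.6%) were gained in KO cells on day 3 and 16 (25.8%) with CHIR, beside 3.92% and 11.0% of all regions, and 14 (22.6%) were lost in KO cells with XAV, beside 4.17%. Of the 51 regions at neuroectoderm markers, KO cells gained 1 and lost 2, CHIR-treated cells lost 9 (17.6%, beside 9.02% of all regions) and XAV-treated KO cells gained 7 (13.7%, beside 4.89%). Epiblast markers gained 4 and lost 2 of 54 regions in KO cells and lost 9 (16.7%) with CHIR. Fibroblast markers lost 6 of 37 regions (16.2%) both in KO cells, beside 4.22% of all regions, and in CHIR-treated cells. WT cells themselves gained 5 of these 37 (13.5%) from day 2 to day 3, beside 3.46% of all regions. MUT cells lost 2 (5.41%) against WT on day 3, beside 1.94%. The WT libraries of day 3 enter each of these comparisons, so the losses may lie in them, which was not tested. Extraembryonic endoderm markers gained 2 and lost 2 of 30 regions in KO cells and gained 5 (16.7%) with CHIR. Housekeeping genes gained 4 of 36 regions (11.1%) in KO cells, a share above the 8.82% of the 34 antagonist regions. The part of these changes in those at the antagonists was not tested. The lists held 161449 to 276451 peaks per library, and the reads behind them are unknown.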

How the data were processed

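ATAC-seq (Omni-ATAC) peak lists of 16 libraries were used, 1 per cell line, day and treatment. Per the study's methods the authors used the ATAC-seq pipeline of ENCODE, and the submitters' notes name mm10. The −log10 p values in the deposited lists start at 2. For the aligner and caller, the sources used here do not give version numbers. The submitters' processing notes name DiffBind 3.0.15, HOMER 2 and deepTools 3.4.3. The deposited lists give, per summit, the fold enrichment over local background (a ratio) and the −log10 p and −log10 q that the authors' caller assigned. Day 2 replicate 2 libraries were deposited under a name that speaks of merging. Deposited lists of regions that differed between KO and WT cells on day 3 hold the study's own comparison and were not used. Per-sample value columns left unused numbered 0.

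In each library the 50000 unique intervals with the highest −log10 p were kept. Regions open in at least 2 libraries were formed from 150 bp on either side of the summits, and assigned to the nearest protein-coding TSS (GENCODE M21) within 100 kb. Regions overlapping a kept interval by 1 bp were open. Fold enrichment was tested with limma 3.58.1 (R 4.3.3) on the log2 scale, centred per library, over all 8 groups. Adjusted p-values (Benjamini-Hochberg) under 0.05 passed. The steps were checked on simulated data. Python 3.11.15, scipy 1.17.1 and pysam 0.24.0 were also used. Sequences came from the RefSeq GRCm38.p6 genome, and 1 of those chosen by the rule is not reported here.

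The genes, the lists and the tests were chosen with earlier results of these data known. Single regions were given in full when gained or lost on day 3, past the limma threshold on day 3, or within 1 kb of a TSS. Same-numbered libraries of WT, MUT and KO cells came from the same cell line per the labels, which spell KO1 also as KO01. The deviations of same-line libraries from their group means correlated at 0.093 (WT), 0.015 (MUT) and 0.305 (KO) between days, at 0.021 between untreated and XAV-treated KO cells of day 3, and at 0.033 between KO cells of day 2 and XAV-treated cells. Read depth is unknown, so no counting interval is given. Alternatives were the number of intervals kept, a −log10 q limit, the overlap, the TSS window and definition, the scaling, the log2 offset, unlisted values set to the lowest value of a library, cell line as a block and leaving out each library.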

Additional observations from a re-analysis of the deposited data

Results flagged for a closer look

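Sfrp1 +58.9 kb stood out because its centred log2 fold enrichment moved one way in both KO lines and the other way in both WT lines from day 2 to day 3. It changed by 0.84 and 0.67 in KO and by −0.80 and −0.05 in WT, and by −0.09 and 0.56 in MUT. The difference between the KO and WT changes was 1.18, which did not pass with limma (adjusted p = 0.308). It was 1 of 21 regions examined.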

How the results depend on the processing

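Keeping 30000 intervals left 22 regions of the 5 genes, and the count lost with CHIR became 1, the counts gained and lost in WT between days became 0 and 0, and that lost in KO between days 1. A −log10 q of 2 or more gave 86 regions. KO against WT on day 3 then lost 2, MUT gained 1 and lost 1, XAV-treated KO gained 4, KO on day 2 lost 1, WT between days gained 3 and lost 3, KO between days lost 8, and the 4 against 6 libraries lost 1. Within 50 kb of a TSS (29 regions) the gained count was 1 for KO against WT, 1 for the 4 against 6, and XAV-treated KO gained 1 and lost 1. Requiring the overlap to cover most of a region, or a single TSS per gene, kept 34 regions. The cause of these shifts was not tested. The share of all regions was not taken with 30000 intervals or with the −log10 q limit. The 50 kb window left all regions and their states as before, so the shares given above apply to it.

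With unlisted values set to the lowest of a library, limma fitted 80565 regions and called 4166 in KO against WT on day 3, 19 in MUT, 20808 with CHIR, 4523 with XAV, 20 in KO against WT on day 2, 1076 in WT between days and 7744 in KO between days. Of the 34 regions of the 5 genes, 8 passed in KO against WT on day 3 in place of 2 of 21, 14 in place of 4 with CHIR, 6 in place of 2 with XAV, 11 in place of 3 in KO between days and 0 in the other 3 comparisons. Dkk1 +87.7 kb was among them in KO against WT, with CHIR, with XAV and in KO between days. Its values in most libraries were then set and not measured. With cell line as a replicate block the paired fits called 1793 with XAV and 0 in WT between days, and 2561 in KO between days. No call at a region of the 5 genes changed under the block.

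Leaving out 1 library, gained and lost counts ranged over 3 to 8 and 1 to 3 for KO against WT on day 3, 0 to 2 and 0 to 1 for MUT, 10 to 12 and 3 to 4 with CHIR, 2 to 4 and 3 to 8 with XAV, 0 to 1 and 0 to 2 for KO on day 2, 0 to 1 and 0 to 1 for MUT on day 2, 1 to 2 and 1 to 2 in WT between days, 3 to 9 and 0 to 2 in KO between days, and 3 to 6 and 0 to 1 for the 4 against 6. The counts of 8, 8, 9 and 6 arose without KO replicate 2 of day 3. They include regions that entered the set only through KO libraries of day 3 and CHIR-treated libraries. Shares of all regions gained and lost were 6.16 to 7.57% and 6.82 to 8.18% for KO against WT on day 3. They were 4.41 to 4.75% and 3.94 to 5.04% for MUT and 12.5 to 13% and 11.6 to 14.2% with CHIR. With XAV they were 7.71 to 8.61% and 5.84 to 7.88%. On day 2 they lay between 3.51 and 5.49%. Between days they were 5.22 to 7.24% and 6.1 to 7.35% in WT and 6.79 to 9.35% and 9.05 to 9.97% in KO. For the 4 against 6 they were 0.819 to 1.73% and 0.722 to 1.23%. Regions called by limma ranged from 135 to 803 (KO against WT, day 3), 0 to 1 (MUT), 3731 to 4100 (CHIR), 190 to 1159 (XAV), 0 to 2 (KO, day 2), 3 to 234 (WT between days) and 578 to 2362 (KO between days). Fits with a lone library in a group assume that it varies like the others. Fisher's tests under other limits were added after seeing the data.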

Other observations

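Outside the 34 regions, 7 further peaks near these genes were kept in a single library, 3 at Dkk1, 2 at Frzb and 2 at Sfrp1. Both of those at Sfrp1 were in CHIR replicate 1.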
